A study of Caenorhabditis elegans with 36 samples.

Results

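Starvation of daf-2 mutant larvae was followed by comparing 3 arrays of starved daf-2 larvae with 3 arrays of untreated, fed daf-2 larvae, which are 6 of the 36 arrays of the study. The 6 arrays were chosen by the strain and treatment in their labels, with no use of measured values. The deepest falls in the starved larvae were in single genes of the cuticle and of molting. Cuticle collagens as a family were called higher as often as lower. At least 2-fold, 8 of 146 rose and 16 fell, against 984 and 962 of all 17118 genes. Most genes of the proteasome and of DNA replication fell. Most autophagy and neuropeptide genes rose. Enzymes of fat use moved both ways. Of 76 genes of fatty acid breakdown and lipases 32.9% were higher and 38.2% lower, against 24.1% and 19.8% of all genes. Changes were smaller over the array in daf-2 than in the wild type, and untreated daf-2 larvae differed more from untreated wild-type larvae than the starved strains did from each other. Some genes that rose in daf-2, led by chil-28 and cpr-2, were not called in daf-2;daf-16 double mutants.

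In C. elegans, DAF-2 is the single receptor of the insulin and IGF type. When insulin-like peptides bind it, a kinase cascade through AGE-1, PDK-1 and AKT keeps the FoxO transcription factor DAF-16 out of the nucleus. Loss of DAF-2 function frees DAF-16, which activates genes of stress defence, metabolism and longevity. Larvae that hatch without food stop development in the first larval stage (L1), and DAF-16 takes part in that arrest. Fed L1 larvae instead grow, divide their blast cells and prepare the cuticle that replaces the old one at the molt.

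The study profiled synchronized L1 larvae of 4 strains, wild-type N2 and the mutants daf-2, daf-16 and daf-2;daf-16, which were left untreated, exposed to ultraviolet light or starved. Total RNA of whole larvae was hybridized to a single-colour Affymetrix array whose probe sets each read 1 transcript or a few related ones. The groups used here are untreated and starved daf-2 (3 and 3 arrays), untreated and starved N2 (3 and 3), and untreated and starved daf-2;daf-16 (3 and 4), called the double mutant below. The protocol text is the same for every sample and describes feeding for 4 h and harvest 6 h after ultraviolet exposure. For the starved larvae, the length and the manner of starvation are not given in the sources used, and neither are the mutant alleles. The double mutant is labelled with mutations in both genes, so that it differs by label from daf-2 in daf-16. The labels do not tell whether replicate arrays had cultures of their own. The p-values therefore cover the spread between arrays only, which may be technical.

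Signals are log2 values, so a difference of 1 is a 2-fold change. A gene was called changed where its adjusted p in limma, with the Benjamini-Hochberg adjustment over 22548 probe sets, was under 0.05. Errors are standard errors of the difference from that fit, and precision is limited by the 3 or 4 arrays of each group. Where a gene has several probe sets, the one with the highest mean over all arrays was used, which gave 17118 genes. A signal near background does not follow further loss of transcript, so falls that end there understate the change.

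The targeted genes were read first. The brightest of 4 daf-2 probe sets had log2 signals of 5.04, 5.04 and 5.27 in untreated daf-2 larvae and of 6.13, 5.78 and 5.60 in starved ones. The groups did not overlap, and the change was 0.72 ± 0.15 (adjusted p = 9.2e-05). Of the other 3 daf-2 probe sets, 1 was called (0.71) and 2 were not (0.24 and 0.09). In N2 the brightest daf-2 probe set read 5.16, 4.95 and 5.02 untreated and 5.62, 5.60 and 5.68 starved. In the double mutant that probe set read 5.10, 4.81 and 5.07 untreated and 5.39, 5.31, 5.72 and 5.69 starved. The brightest of 4 daf-16 probe sets read 8.14, 8.10 and 8.05 in untreated and 9.01, 8.83 and 8.62 in starved daf-2 larvae, a change of 0.72 ± 0.10 (adjusted p = 2.5e-07). All 4 were called higher, and the only one not shared with other transcripts changed by 1.28 ± 0.12. The brightest daf-16 probe set read 8.18, 8.06 and 8.0 in untreated and 9.22, 9.45 and 9.27 in starved N2. In double mutants that probe set read 8.60, 8.35 and 8.55 untreated and 9.13, 9.08, 9.20 and 9.18 starved. In untreated daf-2 larvae the brightest daf-2 probe set was about as low as the mean over yolk and adult germline genes given below. Its signals therefore do not show that the daf-2 transcript was present. With unknown alleles these probe sets check nothing about the mutations. By the brightest probe set the rise of daf-16 was smaller in daf-2 than in N2 (difference -0.52, adjusted p = 1.0e-02).

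The 6 daf-2 arrays held together within their groups. The standard deviation of the differences between 2 arrays over all probe sets was 0.178 to 0.239 for untreated daf-2 and 0.217 to 0.257 for starved daf-2. On the first principal component, which carried 65.5% of the variance over the 36 arrays, untreated daf-2 arrays lay between -34.1 and -30.3 and starved ones between 66.0 and 72.9. The differences between the 3' and 5' probe sets of Gapdh, actin and ubiquitin, a sign of RNA quality, overlapped between the groups. 2 arrays of the double mutant stood apart from their groups. Untreated replicate 1 differed from its partners with a standard deviation of 0.358 and 0.359, against 0.152 between those partners, and starved replicate 4 with 0.254 to 0.258, against 0.154 to 0.158. Differences between the responses of daf-2 and the double mutant are therefore given with and without these arrays.

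Markers of muscle, intestine, neurons and epidermis, tissues expected in an L1 larva, were present. In daf-2, mean log2 signals went from 11.06 to 11.25 with starvation for unc-54, the major body wall myosin, and from 12.63 to 11.84 for act-5, the intestinal actin. They went from 8.35 to 9.20 for snt-1, a synaptic vesicle protein, and from 10.31 to 9.74 for lin-26, an epidermal fate factor. Over 61 yolk and adult germline genes, which an L1 larva should lack, the mean log2 signal lay between 4.86 and 5.11 in untreated and between 4.85 and 5.09 in starved daf-2 arrays. Among germ cell markers, pgl-1 went from 7.06 to 6.92 and glh-1 from 8.52 to 8.23. The germ cell marker nos-2, at 4.44 and 4.48, lay below the mean of the yolk and adult germline genes. In whole larvae, fewer cells of a tissue and less RNA per cell cannot be told apart.

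Starvation changed 9692 of 22548 probe sets in daf-2, or 43.0%, of which 5253 rose and 4439 fell. At least 2-fold changes were called in 2429 probe sets (10.8%), 1204 higher and 1225 lower. Counted over genes, 24.1% were called higher and 19.8% lower, and these shares are the background against which the gene lists below are read. For the 2-fold counts of the lists the background is 984 genes higher and 962 lower of 17118. The 3 starved arrays did not overlap the 3 untreated arrays in 8638 of 17118 genes (50.5%). The median change over all probe sets was 0.03.

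**Figure D1:**
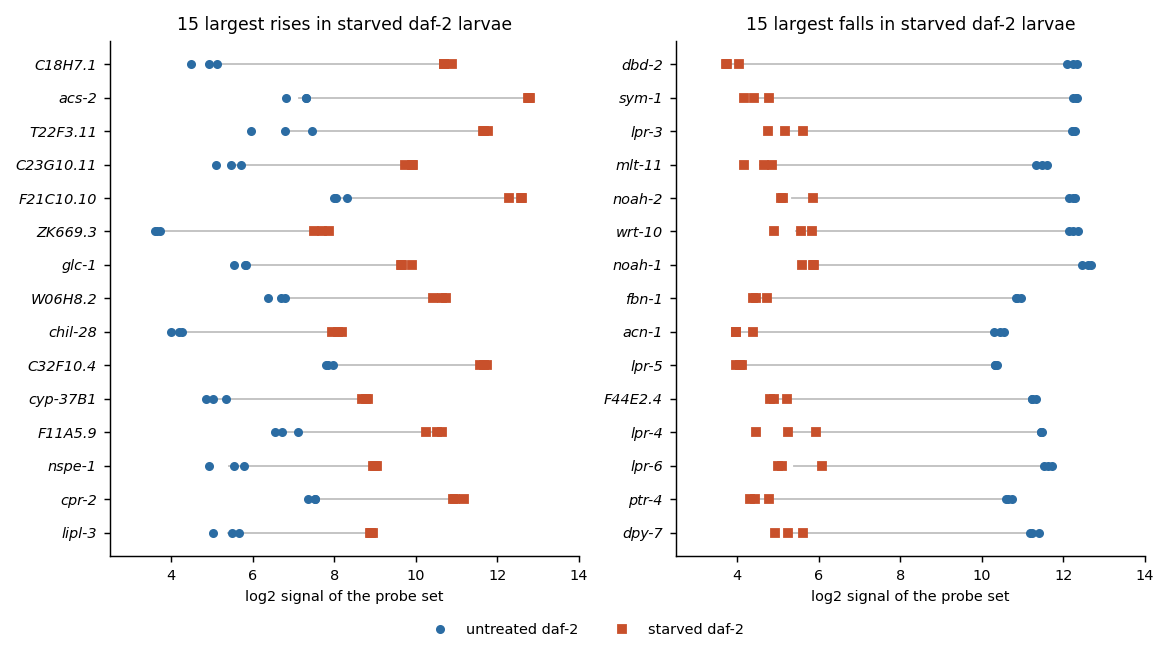
The log2 signal of the 15 genes that rose most and the 15 that fell most in starved daf-2 larvae, with 1 point per array (blue circles untreated, orange squares starved) and a grey line between group means. Only called genes whose 3 starved arrays did not overlap the 3 untreated arrays were eligible, so their separation is no result. Changes run from -8.37 for dbd-2 to 5.91 for C18H7.1.

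The deepest falls were in genes that build and remodel the cuticle. dbd-2 read 12.09, 12.23 and 12.32 untreated and 3.75, 4.04 and 3.74 starved, a fall of -8.37 ± 0.36 (adjusted p = 2.8e-19). sym-1, which encodes a leucine-rich repeat protein of the extracellular matrix, read 12.34, 12.31 and 12.23 untreated and 4.42, 4.17 and 4.79 starved (-7.84 ± 0.22). The named falls were chosen among called genes whose groups did not overlap, so the separation of their arrays is not a result. mlt-11, a protease inhibitor needed for molting, read 11.32, 11.60 and 11.47 and then 4.17, 4.67 and 4.87 (-6.89 ± 0.35). noah-1, a zona pellucida domain protein of the apical matrix, read 12.46, 12.68 and 12.61 and then 5.87, 5.89 and 5.59 (-6.80 ± 0.26). Its relative noah-2 fell by 6.85. dpy-7, a collagen of the furrows that ring the cuticle, read 11.19, 11.24 and 11.41 untreated and 4.94, 5.26 and 5.61 starved (-6.01 ± 0.31). The lipocalin-related genes lpr-3, lpr-5, lpr-4 and lpr-6 changed by -7.06, -6.28, -6.24 and -6.23. The other named falls were the fibrillin-like fbn-1 (-6.35 ± 0.19), the hedgehog-related wrt-10 (-6.80), the patched-related ptr-4 (-6.13), acn-1, a relative of angiotensin-converting enzyme needed for molting (-6.31), and F44E2.4 (-6.28).

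By the RefSeq annotation of assembly WBcel235, 8 of the 15 deepest falls lie on chromosome X, which holds 13.7% of the 17118 genes. The 4 lpr genes are consecutive coding genes there, in the order lpr-3, lpr-6, lpr-5, lpr-4. Among the 15 largest rises, 9 lie on chromosome V, which holds 25.2% of the genes. These positions are a description of genes chosen by their change and were not tested.

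The molting cycle list showed the same fall less uniformly. It has members in common with the hedgehog-related and patched-related list given below, so these lists are not independent. Whether each member cycles with the molt was not tested. Of 116 measured members 44 fell and 14 rose, with a median of -0.15, and 36 of the falls were at least 2-fold. Its mean log2 signal lay between 6.89 and 6.98 in untreated and between 5.61 and 5.80 in starved daf-2 arrays. nhr-23, a nuclear receptor that drives the molting programme, read 9.31, 9.25 and 9.23 untreated and 5.44, 5.40 and 5.72 starved, a fall of -3.74 ± 0.12 (adjusted p = 3.0e-22). lin-42, the worm relative of PERIOD and part of the larval timer, fell by 1.68. nhr-25, a partner receptor in molting, instead rose by 0.62. Among the members that rose, nas-7, an astacin metalloprotease, increased by 2.20 ± 0.17 and mlt-7, a peroxidase needed for molting, by 1.05 ± 0.16. The list is therefore not uniform in starved daf-2 larvae.

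Cuticle collagens were called higher and lower equally often. Of 146 members 21 rose and 21 fell, 14.4% each way, both below the background shares. At least 2-fold, 8 rose and 16 fell, against 984 and 962 of all 17118 genes. Without shared probe sets 8 of 86 rose and 13 fell. The falls included col-149, from 13.02, 12.96 and 12.92 untreated to 7.52, 7.62 and 7.79 starved (-5.32 ± 0.18, adjusted p = 9.3e-22), and sqt-1, from 9.80, 9.75 and 9.95 to 4.77, 5.20 and 5.33 (-4.73 ± 0.45). The furrow collagen gene dpy-2 fell by 4.94. The rises included col-39, from 7.42, 7.06 and 7.15 to 10.56, 10.54 and 10.64 (3.37 ± 0.22, adjusted p = 1.0e-14), and col-107, from 9.61, 8.86 and 9.15 to 12.22, 11.91 and 12.04 (2.85 ± 0.19). In all 4 collagens given by array the groups were apart. Of 80 hedgehog-related and patched-related genes, secreted and membrane proteins mostly of the epidermis, 20 fell and 10 rose (median -0.07).

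The largest rises were led by a gene with no given name, C18H7.1, which read 4.93, 4.50 and 5.12 untreated and 10.89, 10.70 and 10.70 starved (5.91 ± 0.52, adjusted p = 1.7e-11). acs-2, an acyl-CoA synthetase that feeds fatty acids to mitochondrial oxidation, read 7.32, 6.81 and 7.31 and then 12.74, 12.79 and 12.76 (5.61 ± 0.50, adjusted p = 2.1e-11). T22F3.11 read 6.79, 5.95 and 7.45 and then 11.64, 11.77 and 11.66 (4.96 ± 0.69). In these genes the untreated arrays were spread more widely than the starved ones. lipl-3, a lysosomal lipase, read 5.49, 5.03 and 5.66 untreated and 8.95, 8.90 and 8.88 starved (3.52 ± 0.31). glc-1, a subunit of a glutamate-gated chloride channel, read 5.83, 5.54 and 5.82 and then 9.90, 9.64 and 9.67 (4.01 ± 0.15). cpr-2, a cathepsin B-like protease, read 7.52, 7.37 and 7.54 and then 10.92, 10.97 and 11.17 (3.55 ± 0.13), and chil-28, a chitinase-like gene, 4.26, 4.00 and 4.21 and then 8.09, 8.20 and 7.95 (3.92 ± 0.17). These rises too were chosen among called genes whose groups did not overlap. The other large rises were C23G10.11 (4.42), F21C10.10 (4.37), ZK669.3 (4.04), W06H8.2 (3.97), C32F10.4 (3.78), the cytochrome P450 gene cyp-37B1 (3.69), F11A5.9 (3.67) and nspe-1 (3.57).

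Enzymes of fat use moved in both directions. Of 76 genes of fatty acid breakdown and lipases 25 rose and 29 fell (median -0.09). Without shared probe sets 19 of 54 fell. Beside acs-2 and lipl-3, lipl-4, another lysosomal lipase, rose from 4.96, 5.06 and 4.75 to 6.46, 6.31 and 6.73 (1.57 ± 0.12). cpt-4, a carnitine palmitoyltransferase, fell from 7.58, 7.79 and 7.45 to 4.05, 4.04 and 4.11 (-3.55 ± 0.23, adjusted p = 1.7e-14). acox-1.2, a peroxisomal acyl-CoA oxidase, fell by 1.73 while its relative acox-1.1 rose by 0.54. icl-1, the bifunctional enzyme of the glyoxylate cycle that turns fat into carbohydrate, read 10.75, 10.49 and 10.73 untreated and 13.56, 13.48 and 13.65 starved (2.90 ± 0.34, adjusted p = 9.6e-09). pck-2, a phosphoenolpyruvate carboxykinase of gluconeogenesis, rose by 0.43 ± 0.07, and pck-1 was not called (0.18 ± 0.15). The glyoxylate, gluconeogenesis and trehalose list had 7 of 17 members higher and 4 lower.

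In fatty acid synthesis, 9 of 23 members rose and 9 fell, and the steps of the pathway differed. fasn-1, the fatty acid synthase, went from 11.75, 11.72 and 11.68 to 9.73, 9.76 and 9.72 (-1.98 ± 0.10, adjusted p = 2.7e-17). acly-1 and acly-2, the ATP citrate lyases that supply its carbon, fell by 1.97 and 1.88, and the elongase elo-4 fell by 3.56. The desaturases moved the other way. fat-5 went from 6.64, 6.20 and 6.39 to 9.17, 9.31 and 9.16 (2.80 ± 0.19, adjusted p = 3.8e-14), fat-3 rose by 1.52 and fat-6 by 1.01, while fat-7 was not called (0.32 ± 0.23). Glycolysis (4 higher and 5 lower of 16) and the TCA cycle and respiratory chain (21 and 29 of 84) had shares of higher members near the background, while their lower shares, 31.2% and 34.5%, were above the 19.8% of all genes.

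Regulators of fasting and fat rose more often than the background. In that list 14 of 20 members rose, or 70.0%, and 3 fell (median 0.55). mxl-3, a repressor of lipase genes in fed worms, read 8.55, 8.22 and 8.29 untreated and 10.56, 10.44 and 10.07 starved (2.00 ± 0.22, adjusted p = 2.5e-09). hlh-30, the TFEB relative that activates lysosomal and autophagy genes, rose by 1.36 ± 0.17, and sbp-1, the SREBP relative, by 1.23 ± 0.11. The Mediator subunit mdt-15 rose by 0.99 and nhr-49, a nuclear receptor that activates acs-2, by 0.35 ± 0.12. egl-27, named with daf-16 in the study's title, read 9.32, 9.29 and 9.13 and then 10.10, 10.23 and 9.94 (0.84 ± 0.09, adjusted p = 5.3e-10), and 2 of its 4 probe sets were called. The epidermal GATA factor elt-3 fell by 0.67 and the intestinal one, elt-2, by 0.33. Of 23 nutrient sensing kinases and regulators 11 rose and 2 fell. The AMP-activated kinase subunits aakg-4 and aak-2 rose by 1.57 ± 0.13 and 0.89 ± 0.09, while let-363, the worm TOR kinase, was not called (0.24 ± 0.16).

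Transcripts of the insulin pathway itself shifted by small amounts. Of 21 components 11 rose and 3 fell, and 1 rise was at least 2-fold, that of the receptor substrate gene ist-1 (1.62 ± 0.23). The kinase genes akt-1, akt-2, pdk-1 and age-1 rose by 0.86, 0.68, 0.65 and 0.36. Insulin-like peptide genes moved both ways, 8 of 24 higher and 6 lower. ins-33 read 10.29, 10.19 and 10.32 untreated and 6.19, 6.09 and 6.48 starved (-4.01 ± 0.19, adjusted p = 2.8e-18), the largest change of the family. ins-11 read 7.27, 7.18 and 7.07 and then 5.05, 4.93 and 5.15 (-2.13 ± 0.15), and daf-28, a peptide that activates DAF-2, read 6.76, 6.39 and 6.49 and then 5.47, 5.44 and 5.91 (-0.95 ± 0.13). ins-1, ins-17 and ins-18 rose by 1.28, 1.26 and 0.93.

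**Figure D2:**
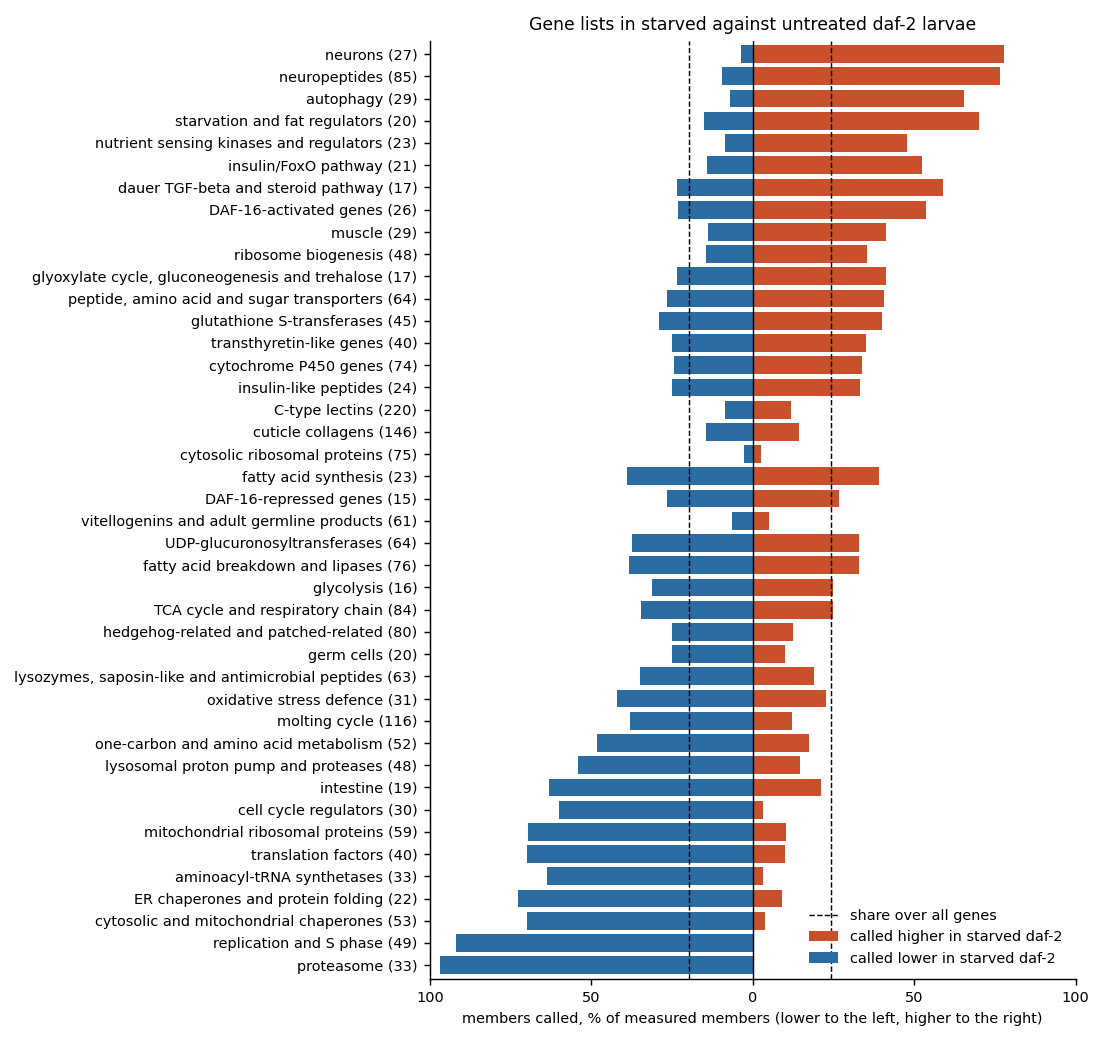
Share of the measured members of each gene list (number in brackets) called higher (orange, right) and lower (blue, left) in starved against untreated daf-2 larvae, for lists with at least 15 measured members. Dashed lines mark the shares over all genes, 24.1% higher and 19.8% lower, and the proteasome (97.0% lower) and neuropeptide (76.5% higher) lists lie far outside them.

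The machinery of protein synthesis and turnover did not move as 1 block. Few cytosolic ribosomal protein genes changed: 2 of 75 rose and 2 fell, below both background shares, with a median of 0.03. The 4 called members were rps-14 (0.11), rpl-23A.2 (0.10), rpl-11.1 (-0.23) and rpl-41.1 (-0.69). Mitochondrial ribosomal protein genes fell in 41 of 59 cases and rose in 6 (median -0.48). mrps-28 fell by 1.08 ± 0.09, and mrps-11 went against the list, from 10.07, 10.00 and 10.07 to 11.49, 11.39 and 11.74 (1.49 ± 0.10). Translation factors fell in 28 of 40 cases (median -0.57) and aminoacyl-tRNA synthetases in 21 of 33 (median -0.39), while the leucyl enzyme gene lars-1 rose by 0.83.

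Ribosome biogenesis factors, which process ribosomal RNA in the nucleolus, rose in 17 of 48 cases (35.4%) and fell in 7. nog-1, a nucleolar GTPase, read 9.61, 9.48 and 9.34 untreated and 11.92, 11.81 and 11.98 starved (2.43 ± 0.11, adjusted p = 4.2e-18). lpd-7, the Pescadillo relative, rose by 1.98, byn-1, the bystin relative, by 1.68, and nst-1, the nucleostemin relative, by 1.47. fib-1, the fibrillarin of the same compartment, was not called (-0.07 ± 0.11), and its starved and untreated arrays overlapped. Of the 17 rises 5 were at least 2-fold.

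The proteasome, which degrades tagged proteins, gave the most uniform fall of the lists with at least 15 members. Of 33 subunit genes 32 fell and none rose, 30 of them at least 2-fold, with a median of -1.48. pas-7, a subunit of the core particle, read 9.88, 9.79 and 9.82 untreated and 7.46, 7.17 and 7.40 starved (-2.49 ± 0.11, adjusted p = 2.2e-18). rpn-12 and rpt-2 of the regulatory particle fell by 1.95 and 1.92. The exception was rpn-6.2, at 4.68, 4.90 and 4.91 untreated and 5.13, 5.01 and 5.33 starved (0.32 ± 0.14, adjusted p = 5.4e-02). 21 of these 33 genes are read by probe sets that are marked as matching several transcripts or symbols, and of the other 12, 11 fell. Most chaperone genes fell as well, 37 of 53 in the cytosol and mitochondria and 16 of 22 in the endoplasmic reticulum. hsp-3, a BiP gene of the endoplasmic reticulum, fell by 2.38.

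Autophagy genes rose. Of 29 measured members 19 rose, or 65.5%, and 2 fell, with a median of 0.42. lgg-2, which encodes an LC3-like protein of the autophagosome, read 9.90, 9.80 and 9.90 untreated and 12.01, 12.10 and 11.93 starved (2.15 ± 0.18, adjusted p = 3.9e-12). Its relative lgg-1 rose by 1.19, the phosphoinositide-binding atg-18 by 1.27, and the cargo receptor sqst-1 by 1.04. bec-1, the Beclin relative, fell by 0.37 ± 0.08. The lysosomal proton pump and protease list went mostly down, with 26 of 48 lower and 7 higher. The cathepsin B-like proteases differed from each other: cpr-5 fell from 10.85, 10.77 and 10.79 to 6.94, 6.97 and 7.03 (-3.82 ± 0.08, adjusted p = 2.3e-27) and cpr-4 from 13.65, 13.56 and 13.60 to 11.79, 11.72 and 11.66 (-1.88 ± 0.10), against the rise of cpr-2 given above. nuc-1, a lysosomal nuclease, fell by 0.65 ± 0.07.

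Replication genes fell almost throughout, 45 of 49 with none higher (median -0.96). mcm-2, a subunit of the replicative helicase, read 8.17, 7.99 and 7.85 untreated and 6.21, 6.07 and 6.25 starved (-1.82 ± 0.12, adjusted p = 8.7e-15). rnr-1, the large subunit of ribonucleotide reductase, read 10.60, 10.66 and 10.57 and then 9.0, 9.07 and 9.32 (-1.48 ± 0.12). Cell cycle regulators fell in 18 of 30 cases and rose in 1. cdk-1, the mitotic kinase, read 9.89, 9.88 and 9.86 and then 8.03, 7.89 and 8.03 (-1.89 ± 0.08), and cyclin cyb-3 fell by 1.54. cki-1, an inhibitor of cyclin-dependent kinases that DAF-16 is known to activate in arrested L1 larvae, was not called (0.22 ± 0.14, adjusted p = 2.2e-01), at 8.97, 9.03 and 8.92 untreated and 9.25, 9.18 and 9.16 starved. lin-35, the retinoblastoma relative, fell by 1.33. Of 20 germ cell genes 2 rose and 5 fell, or 3 without untreated replicate 1 or 2 or without starved replicate 2 or 3.

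Neuropeptide transcripts rose. Of 85 neuropeptide genes 65 rose (76.5%) and 8 fell, with a median of 1.04, and 46 rises were at least 2-fold. nlp-2 read 4.76, 4.74 and 4.85 untreated and 7.02, 6.77 and 7.28 starved (2.24 ± 0.20), and flp-3 read 8.41, 8.37 and 8.25 and then 10.19, 10.21 and 10.41 (1.92 ± 0.14, adjusted p = 3.5e-13). The 8 members that fell were nlp-24, nlp-25, nlp-27, nlp-29, nlp-30, nlp-31, nlp-33 and nlp-36, several of which encode antimicrobial peptides of the epidermis, and nlp-31 went from 9.62, 9.83 and 9.84 to 7.81, 7.93 and 8.05 (-1.83 ± 0.17). Without shared probe sets 2 of 59 members fell, so most of these 8 falls are not read by probe sets of their own. The enzymes that mature neuropeptides rose as well, egl-3 by 1.13 ± 0.11 and egl-21 by 1.05 ± 0.11.

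Neuronal markers moved in the same direction as the neuropeptides. Of 27 members 21 rose and 1 fell, and their mean log2 signal lay between 7.69 and 7.77 in untreated and between 8.29 and 8.43 in starved daf-2 arrays. unc-17, the vesicular acetylcholine transporter, rose by 1.16 ± 0.12, while unc-64, the neuronal syntaxin, fell by 0.71 ± 0.13. Muscle genes had 12 of 29 higher and 4 lower, with means between 10.94 and 11.06 untreated and between 11.08 and 11.17 starved. myo-2, a pharyngeal myosin, rose by 1.11 and unc-52, the perlecan of the muscle basement membrane, fell by 1.47. Intestinal genes had 12 of 19 lower and 4 higher, with means between 9.88 and 9.89 untreated and between 9.36 and 9.39 starved. pho-1, an intestinal acid phosphatase, fell by 2.35 and ges-1, the gut esterase, rose by 0.35. What part these tissue shifts have in the results of other lists was not tested.

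Stress and detoxification families were mixed. Glutathione S-transferases had 18 of 45 members higher and 13 lower, cytochrome P450 genes 25 and 18 of 74, and UDP-glucuronosyltransferases 21 and 24 of 64. Small heat shock proteins had 7 of 12 higher and 4 lower, and 4 of 9 higher without the probe sets of lowest signal. hsp-12.3 rose by 2.51 and hsp-16.20 by 2.32, and hsp-17 fell by 2.11. Oxidative stress genes had 7 of 31 higher and 13 lower, and transthyretin-like genes, secreted proteins of a large nematode family, 14 and 10 of 40. C-type lectins, many of which take part in defence, had 26 of 220 higher and 19 lower, below both background shares. Lysozymes and antimicrobial peptide genes had 12 of 63 higher and 22 lower.

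The same comparison in N2, on arrays not used for daf-2, changed 11963 probe sets (53.1%), 3980 of them at least 2-fold (17.7%), with 28.9% of genes higher and 25.0% lower. The standard deviation of the changes over probe sets was 0.99 in N2 and 0.74 in daf-2. Across 22548 probe sets, which are not independent replicates, the changes of the strains had a Pearson correlation of 0.88. The difference between the responses was called for 3348 probe sets (14.8%), of which 1343 were higher and 2005 lower in daf-2. Counted over genes, 6.39% were higher and 9.24% lower. Untreated daf-2 and untreated N2 differed at least 2-fold in 824 probe sets (3.65%), and starved daf-2 and starved N2 in 173 (0.767%). These comparisons share their arrays with the responses, and the counts are given only side by side. On the first principal component untreated N2 lay between -66.1 and -58.2 and starved N2 between 78.0 and 82.5, so both daf-2 groups lay between the N2 groups.

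**Figure D3:**
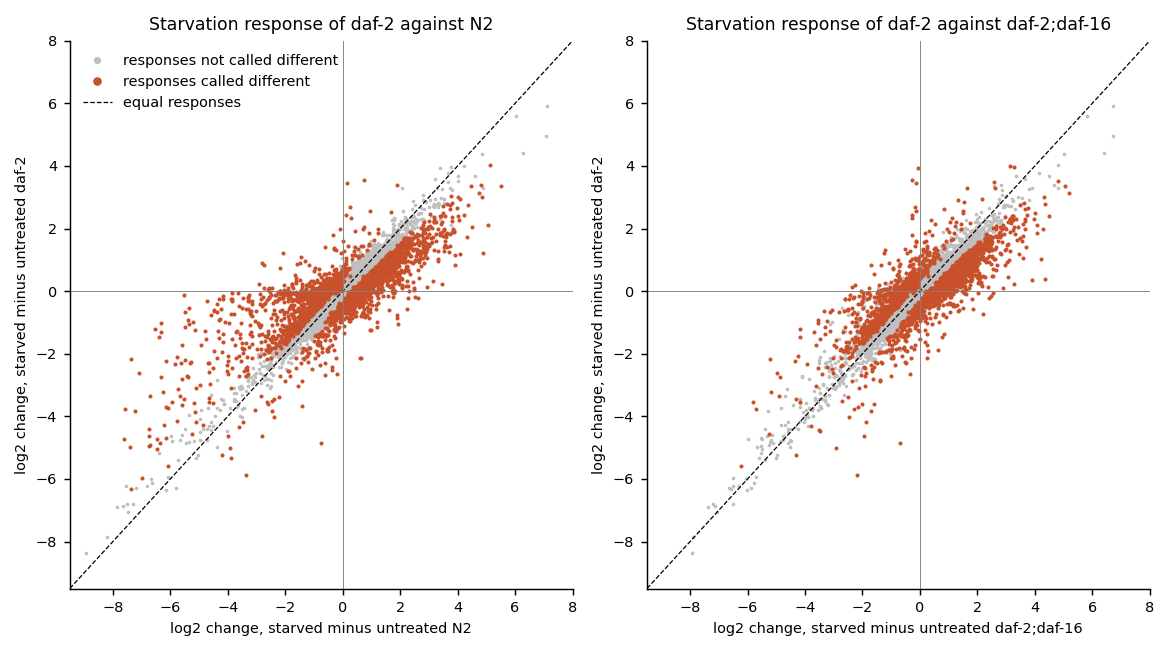
Starvation response of each of 17118 genes in daf-2 (vertical, log2 change) against its response in N2 (left) and in daf-2;daf-16 (right), with grey points not called different between strains, orange points called different, and a dashed line of equal responses. The points follow the line, and many orange points at the left of the left panel lie above it, where genes fell less in daf-2 than in N2.

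The 8 genes whose response in daf-2 lay most above that in N2 were high in untreated N2 larvae and lower in starved N2 and in both daf-2 groups. grl-7, a hedgehog-related gene, read 5.80, 5.90 and 6.05 in untreated and 4.67, 4.94 and 5.07 in starved daf-2. In N2 it read 11.00, 11.03 and 11.28 untreated and 4.91, 4.59 and 4.82 starved. The response of daf-2 was thus higher by 5.30, and the starved arrays of the strains lay close together. F33D4.6 read 5.03, 5.27 and 5.26 in untreated and 4.80, 5.16 and 5.26 in starved daf-2, and 9.97, 10.08 and 10.35 in untreated and 4.81, 4.44 and 4.60 in starved N2 (difference 5.40). In the double mutant the untreated arrays of F33D4.6 read 9.49, 5.81 and 6.14, the first of which is the array that stands apart. The other differences of this kind were C14A4.9 (5.32), ZK1025.3 (5.22), spia-1 (5.01), F15B9.8 (4.94), grl-15 (4.86) and bah-1 (4.79). The mean log2 signal of the molting cycle list lay between 7.41 and 7.50 in untreated N2 and between 6.89 and 6.98 in untreated daf-2, while starved N2 lay between 5.60 and 5.65. The part that larval age within the stage has in these differences was not tested.

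**Figure D4:**
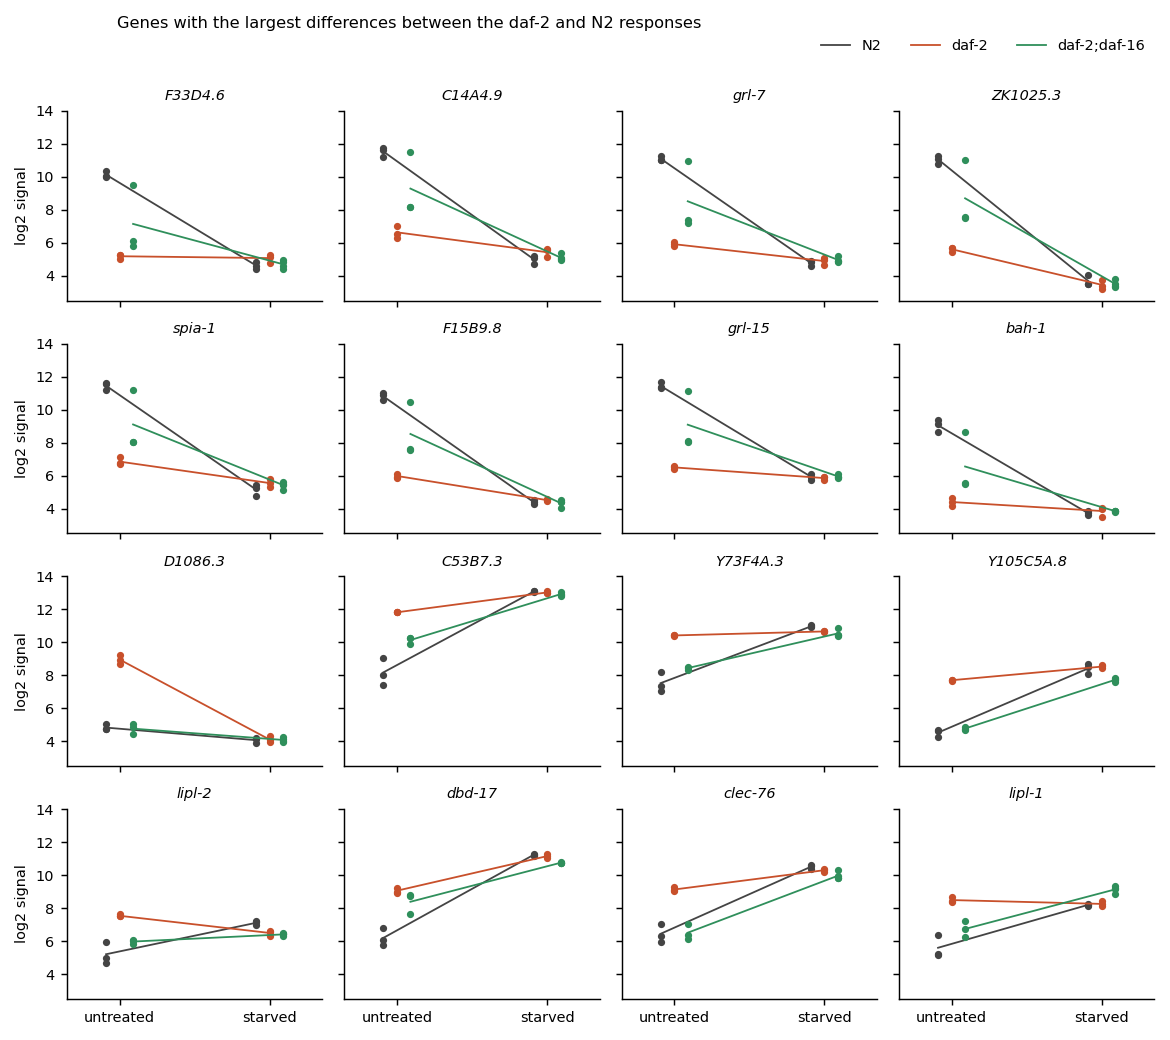
Log2 signal in untreated and starved larvae of the 16 genes whose responses differ most between daf-2 and N2, with dots for arrays and lines between group means (grey N2, orange daf-2, green daf-2;daf-16). In most panels the strains meet in the starved larvae and lie apart in the untreated ones, and in lipl-2 the lines of daf-2 and N2 cross.

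The genes whose response lay most below that in N2 were of several kinds. C53B7.3 read 11.83, 11.82 and 11.82 in untreated and 13.11, 12.97 and 13.01 in starved daf-2, against 9.06, 8.04 and 7.44 and then 13.10, 13.10 and 13.04 in N2 (difference -3.69). lipl-2, a lipase, went from 7.49, 7.62 and 7.49 to 6.55, 6.60 and 6.32 in daf-2, a fall of 1.04, whereas in N2 it went from 5.97, 4.97 and 4.66 to 6.96, 7.23 and 7.14, a rise of 1.91 (difference -2.96). D1086.3 was different, since it read 8.96, 9.21 and 8.71 in untreated daf-2 and 5.03, 4.72 and 4.74 in untreated N2, and 3.93, 4.05 and 4.31 in starved daf-2 and 4.14, 3.89 and 4.17 in starved N2 (difference -4.09). It was thus high in untreated daf-2 larvae and low in the other 3 groups. The rest were Y73F4A.3 (-3.20), Y105C5A.8 (-3.07), dbd-17 (-2.94), the C-type lectin gene clec-76 (-2.89) and lipl-1 (-2.84).

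Genes known to be activated by DAF-16 gave a lower response in daf-2 more often than a higher one. Of 26 such genes 14 rose and 6 fell in daf-2 (median 0.26), and 21 rose and 3 fell in N2 (median 0.94). The response of daf-2 was called lower in 13 and higher in 2, against the 9.24% and 6.39% of all genes. Without shared probe sets 15 members were left, of which 1 fell in daf-2 (median 1.13). Among these 15 the daf-2 response was called lower than that of N2 in 8 (median difference -0.55). sod-3, a mitochondrial superoxide dismutase and a common reporter of DAF-16 activity, read 8.66, 8.87 and 8.78 in untreated and 8.38, 8.40 and 8.83 in starved daf-2, which overlap (-0.23 ± 0.13, adjusted p = 1.6e-01). In N2 it read 5.24, 5.31 and 5.69 untreated and 7.76, 7.79 and 7.55 starved, a rise of 2.28. mtl-1, a metallothionein, read 8.43, 8.30 and 8.26 and then 8.73, 8.03 and 8.60 in daf-2 (0.13 ± 0.20), against 4.42, 3.91 and 3.98 and then 7.67, 6.52 and 6.96 in N2. Both genes were as high in untreated daf-2 as, or higher than, in starved N2. sod-5, a copper and zinc superoxide dismutase, took another course, at 4.56, 4.54 and 4.53 in untreated and 6.31, 6.92 and 8.05 in starved daf-2 (2.55 ± 0.24) and at 4.50, 4.54 and 4.60 and then 5.08, 5.52 and 5.89 in N2 (difference 1.60, adjusted p = 8.3e-04).

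Other lists with a different response in the 2 strains are read against the 6.39% and 9.24% of all genes. Cuticle collagens were called higher in the daf-2 response in 47 of 146 cases and lower in 10, and their counts in N2 were 20 higher and 73 lower. Without N2 untreated replicate 3, 29 were higher. Neuropeptides were called lower in 29 of 85 and higher in 1, with medians of 1.04 in daf-2 and 1.44 in N2. Without N2 untreated replicate 3, 18 were lower, and without daf-2 starved replicate 2, 19 were. Transthyretin-like genes were called lower in 22 of 40 and higher in 1. Replication genes were called higher in 17 of 49 and ribosome biogenesis factors in 17 of 48, where N2 had 22 lower and 9 higher and daf-2 had 7 lower and 17 higher. Without shared probe sets the counts were 6 of 28 replication genes and 7 of 26 ribosome biogenesis factors. fib-1 read 11.85, 11.78 and 11.71 in untreated and 11.75, 11.80 and 11.57 in starved daf-2 and 12.21, 12.44 and 12.42 and then 11.22, 11.42 and 11.45 in N2 (difference 0.92, adjusted p = 4.7e-05).

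In the double mutant starvation changed 12286 probe sets (54.5%), 3786 of them at least 2-fold (16.8%), with 28.3% of genes higher. The correlation with the daf-2 response across probe sets was 0.90. The responses differed in 2885 probe sets (12.8%), 1184 higher and 1701 lower in daf-2, and over genes 5.65% were higher and 8.05% lower. Without the 2 arrays of the double mutant that stand apart, 3066 probe sets were called.

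Several of the genes named above rose in daf-2 without a rise in the double mutant. cpr-2 read 5.72, 5.67 and 5.53 in untreated and 5.18, 5.45, 5.35 and 5.43 in starved double mutants, against the daf-2 rise of 3.55, a difference of 3.83 ± 0.18 (adjusted p = 4.6e-16), or 3.82 without the arrays that stand apart. In N2 it read 5.91, 5.60 and 5.97 and then 6.64, 6.50 and 6.52, so cpr-2 was high in starved daf-2 larvae and lower in each of the other groups. chil-28 read 3.71, 3.96 and 3.90 and then 4.11, 3.62, 3.91 and 3.60 in the double mutant, a difference of 3.97 (3.98 without those arrays), and in N2 it rose by 3.40. D1086.9 read 5.89, 5.59 and 6.07 in untreated and 8.16, 8.75 and 10.99 in starved daf-2 (3.45 ± 0.33), and its starved arrays spread over more than 2 log2 units. It read 5.66, 5.49 and 5.52 and then 5.55, 5.38, 5.40 and 5.44 in the double mutant. The difference was 3.57, or 3.51 without the arrays that stand apart and 2.72 without daf-2 starved replicate 3. clec-3, a C-type lectin gene, rose in daf-2 from 4.20, 4.16 and 4.67 to 7.17, 6.95 and 6.96 (2.68). In the double mutant its change was -0.16 and was not called, and the difference was 2.84, or 2.46 without the arrays that stand apart.

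Smaller differences of the same direction were called for known DAF-16 targets. lipl-4 read 3.80, 3.65 and 3.61 in untreated and 3.44, 3.73, 3.60 and 3.37 in starved double mutants (difference 1.73 ± 0.16, adjusted p = 2.6e-09, or 1.62 without the arrays that stand apart). The difference was 2.69 ± 0.32 for sod-5 and 1.20 ± 0.21 for hsp-12.6, a small heat shock protein that rose from 3.43, 3.61 and 3.37 to 4.50, 4.69 and 5.50 in daf-2. Without those arrays these differences were 2.49 and 1.16. In contrast fat-5, also on the DAF-16 list, rose by 2.72 in the double mutant, and its responses were not called different (0.08 ± 0.26, or -0.16 without those arrays). icl-1 rose by 3.78 there, and its difference of -0.88 ± 0.47 was not called, but without those arrays the daf-2 response was called lower (-1.44, adjusted p = 1.5e-02). acs-2 and C18H7.1, the leading rises in daf-2, rose by 5.83 and 6.71 in the double mutant, and by 6.60 and 7.67 over the arrays left. Their responses were not called different in either setting. Of the 26 DAF-16-activated genes the daf-2 response was higher in 9 and lower in 2, and without the arrays that stand apart higher in 9 and lower in 7.

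In other genes the daf-2 response lay below that of the double mutant. F49H6.5 read 3.37, 3.40 and 3.44 in untreated and 3.73, 3.92 and 3.71 in starved daf-2 (0.39, not called), and in the double mutant 4.01, 3.63 and 3.69 and then 7.86, 8.08, 7.71 and 8.87 (difference -3.97, or -3.84 without the arrays that stand apart). zig-3, a secreted immunoglobulin domain protein of neurons, was not called in daf-2 (0.11) and rose by 2.88 in the double mutant and by 1.74 in N2, with a difference from the double mutant of -2.77, or -2.67 without those arrays. cest-29, a carboxylesterase gene, differed by -3.16, C27H5.6 by -3.54, Y40B10B.1 by -3.06 and F46A8.1 by -2.91. Without those arrays these values were -3.62, -3.23, -3.18 and -2.74. cpr-4 and nuc-1, which fell in daf-2, rose in the double mutant by 0.62 and 1.05 (differences -2.50 ± 0.13 and -1.70 ± 0.10, or -2.52 and -1.72 without those arrays). ins-11 fell by 2.13 in daf-2 and was not called in the double mutant (0.26), a difference of -2.39 ± 0.21, or -2.38 without those arrays.

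Some of the largest differences from the double mutant rest on its untreated replicate 1. ZK1025.3, C14A4.9 and F15B9.8 differed by 3.03, 2.97 and 2.72 with that array, whose signals were 11.01, 11.52 and 10.44, and by 1.97, 1.95 and 1.82 without the arrays that stand apart. The other untreated double mutants read 7.50 and 7.59 for ZK1025.3. F57H12.6 fell by 5.87 in daf-2 and by 2.20 in the double mutant, and the difference went from -3.67 to -4.59 without those arrays. ZK154.1 and D1086.3 differed by 2.72 and -4.17, and by 2.40 and -4.34 without them. The molting cycle list mean was 7.39 in that array and 6.92 and 6.89 in the other 2. All of these differences were called in both settings.

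**Figure D5:**
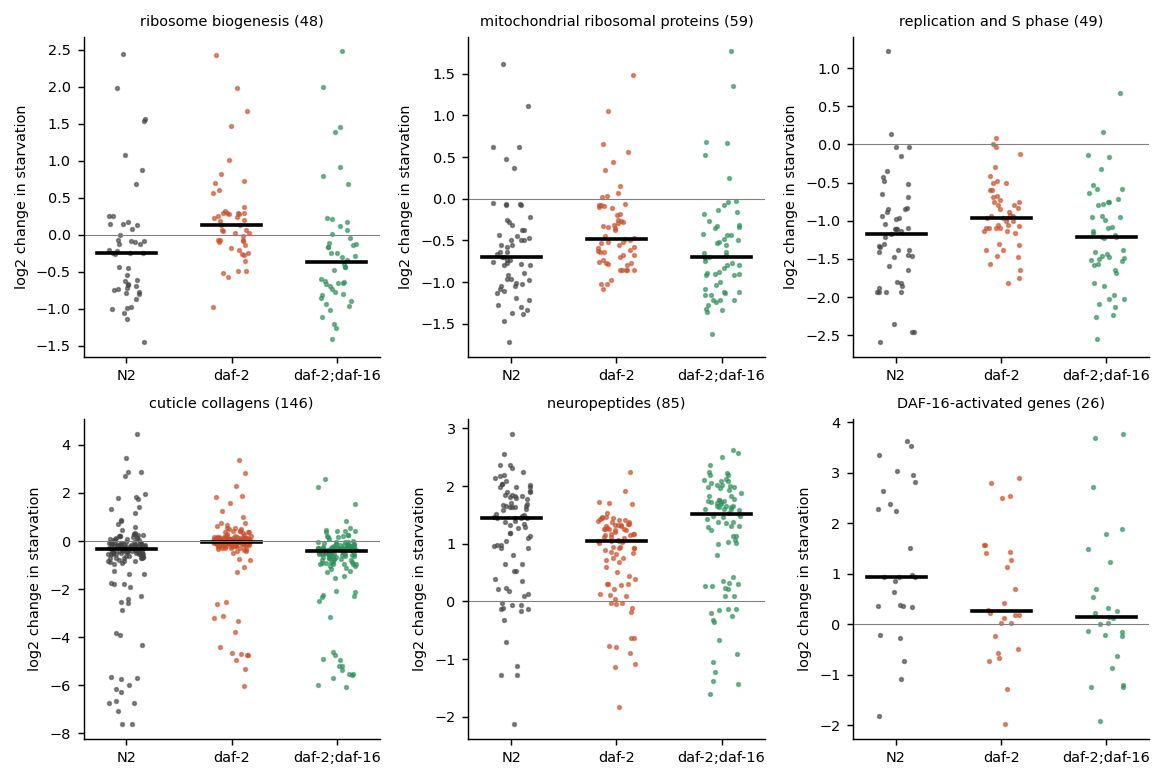
Starvation responses (log2 change) of the members of 6 gene lists in N2, daf-2 and daf-2;daf-16, with 1 dot per gene and black bars at the medians. Neuropeptide medians are 1.04 in daf-2 against 1.44 in N2 and 1.51 in the double mutant, and DAF-16-activated medians 0.26 against 0.94 and 0.14. Without shared probe sets the DAF-16-activated median in daf-2 is 1.13, over 15 genes.

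Several lists differed between daf-2 and the double mutant more often than all genes did. Neuropeptides rose in 66 of 85 cases in the double mutant with a median of 1.51, and the daf-2 response was called lower in 34, with or without the arrays that stand apart. Autophagy genes had a median of 0.87 there, and the daf-2 response was lower in 10 of 29 (12 without those arrays), against 8.05% of all genes. That count was 6 without daf-2 untreated replicate 1 and 5 without double mutant untreated replicate 2 or 3. It was 6 with quantile normalization and 3 of 17 without shared probe sets. Ribosome biogenesis factors had a median of -0.36 in the double mutant and 0.13 in daf-2, and the daf-2 response was higher in 20 of 48 (32 without those arrays). It was higher in 18 of 59 mitochondrial ribosomal protein genes (28), 19 of 49 replication genes (19), 11 of 40 translation factors (17), 10 of 33 proteasome genes (13) and 49 of 146 cuticle collagens (39), where the value in brackets leaves out those arrays. Each share lies above the 5.65% of all genes. For translation factors the count was 6 without daf-2 untreated replicate 3, 7 without double mutant starved replicate 1, and 6, 5 and 17 without double mutant untreated replicates 2, 3 and 1. For proteasome genes it was 6 without daf-2 untreated replicate 2 or double mutant untreated replicate 2 or 3, and 17 with quantile normalization. For replication genes the count was 12 in a fit of only the groups compared. Without shared probe sets the counts were 6 of 28 replication genes and 18 of 86 cuticle collagens. They were 9 of 26 ribosome biogenesis factors, 3 of 15 translation factors and 3 of 12 proteasome genes in that setting. kars-1, the lysyl-tRNA synthetase gene, gives the size of such a difference. It read 11.10, 11.11 and 10.96 in untreated and 11.10, 11.02 and 11.11 in starved daf-2, and 11.05, 11.43 and 11.49 and then 9.97, 9.94, 10.02 and 9.81 in the double mutant (difference 1.41 ± 0.11, adjusted p = 1.2e-11). The double mutant changed by -1.48 over the arrays left, and the difference was called there too (adjusted p = 7.8e-15).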

How the data were processed

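RNA was extracted with Trizol and biotin-labelled, per the labels. The authors deposited log2 values. The submitters' processing notes name Affymetrix Power Tools without a version, and its settings are not stated. No header states this unit, which was read from the range of 2.63 to 14.9. Array medians lay between 5.79 and 5.88, and the values were used as deposited. Of 22625 probe sets the 77 controls were left out. Symbols came from the platform annotation, updated through RefSeq gene records: 20766 probe sets had 1 symbol, 887 several and 895 none, and 6954 were shared between transcripts.

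The fit was limma 3.58.1 in R 4.3.3 on all 36 arrays, with a mean for each group, variances moderated along a trend with intensity, and 24 residual degrees of freedom, and p-values from limma adjusted by Benjamini and Hochberg over the table. Differences between responses are contrasts of that fit. Simulated data with known changes served to check the code. The text names the 15 largest rises and falls, the 8 largest differences each way, the 3 study genes and members of 46 gene lists with 2018 measured genes. The rises and falls were taken from called genes whose starved and untreated daf-2 arrays did not overlap. The differences were taken from called genes without that condition. These genes and lists were chosen with earlier results of these data known. Alternatives were other normalizations, variance models, filters, a replicate block and leaving out arrays.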

Additional observations from a re-analysis of the deposited data

Results flagged for a closer look

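The starvation response of daf-2 differed from that of N2 in 3348 probe sets, by a test of the difference itself in limma. The largest differences upward were F33D4.6 (5.40), C14A4.9 (5.32), grl-7 (5.30), ZK1025.3 (5.22), spia-1 (5.01), F15B9.8 (4.94), grl-15 (4.86) and bah-1 (4.79), on the log2 scale. Downward they were D1086.3 (-4.09), C53B7.3 (-3.69), Y73F4A.3 (-3.20), Y105C5A.8 (-3.07), lipl-2 (-2.96), dbd-17 (-2.94), clec-76 (-2.89) and lipl-1 (-2.84).

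The response of daf-2 differed from that of daf-2;daf-16 in 2885 probe sets by the same kind of test. The largest differences upward were chil-28 (3.97), cpr-2 (3.83), D1086.9 (3.57), ZK1025.3 (3.03), C14A4.9 (2.97), clec-3 (2.84), F15B9.8 (2.72) and ZK154.1 (2.72). Downward they were D1086.3 (-4.17), F49H6.5 (-3.97), F57H12.6 (-3.67), C27H5.6 (-3.54), cest-29 (-3.16), Y40B10B.1 (-3.06), F46A8.1 (-2.91) and zig-3 (-2.77).

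Single arrays of starved daf-2;daf-16 lay far from the other 3 of their group in 4 of these genes. Replicate 4 read 8.39 for C27H5.6, 7.45 for cest-29 and 8.27 for F46A8.1, and replicate 3 read 4.19 for F57H12.6. Chance sets apart about 1 in 20 groups by this measure, and replicate 4 also stood apart from its group over all probe sets.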

How the results depend on the processing

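The 65 results on the 3 study genes and the genes with the largest changes or differences kept their direction and their call in all 1177 checks against the alternatives. Apart from the study genes, they were picked as the largest called changes in these data, so that their calls held says little about other genes. Genes named only as list members were not checked 1 by 1 in every alternative. Among those, icl-1 was not called different from the double mutant until the double mutant arrays that stand apart were left out (-1.44, against -0.88). Leaving out 1 array gave 8943 to 9288 probe sets changed by starvation in daf-2, 2576 to 3666 for the difference from N2 and 2158 to 3168 for the difference from the double mutant. Array weights called 6030 and 5362 probe sets for these differences, and the cause was not tested. Without shared probe sets, which tests fewer, the counts were 6058, 2019 and 1729. Over all probe sets, calls of at least 2-fold numbered 2429, 880 and 555. With the replicate block the counts were 9757, 3596 and 2668. Deviations of daf-2 arrays of the same number correlated at 0.43, 0.07 and 0.34, and those of different numbers at -0.46 to 0.15. In daf-2, 5 of 6 arrays correlated best with their own number, against 3 of 6 in N2 and 1 of 6 in the double mutant. The labels do not say that equal numbers are pairs. The main fit did not take them as such, so any spread that daf-2 arrays share by number is left in it. Array weights called 49 neuropeptides lower in the difference from N2, against 29 without weights. ZK1025.3, C14A4.9 and F15B9.8 differed from the double mutant by 1.88, 1.86 and 1.76 without double mutant untreated replicate 1, and F57H12.6 by -4.55. Probe sets of low signal limit what can be seen of deep falls.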
